A study of Mus musculus with 6 samples.

Results

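miR-21a is one of the most studied microRNAs (miRNAs), the short RNAs that guide the silencing of matching messenger RNAs. Both arms of its hairpin, miR-21a-5p and miR-21a-3p, were followed here by name in a count table of mouse bone extracellular vesicles (EVs), small membrane sacs shed by cells. They are 2 of the 1927 mature miRNAs in the table, of which 327 were above 0 in any library. The material was the tibia and femur of untreated male Swiss-CD1 mice aged 8 weeks, from which marrow had been spun out before the bone was crushed. Large EVs (lEVs) were the pellet of a spin at 10000 g. Small EVs (sEVs) were gathered at 100000 g on a 30% sucrose cushion from what that spin left behind. Each fraction had 3 libraries, and nothing in the labels says that replicates come from different animals or isolations, so the p-values reflect the spread among these libraries alone, which may be technical. Size, spin and cushion differ together between the fractions and cannot be told apart.

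A miRNA hairpin is cut into a duplex, and one strand, the guide, is usually kept in the silencing complex while the other, the passenger, is degraded. For miR-21a the guide is the 5p arm. It is found in most cell types, rises with injury, inflammation and in many tumours, and represses Pdcd4 and Spry1 among other messenger RNAs. In bone it is known for promoting osteoclast formation, in part through repression of Pdcd4, and it is present in osteoblasts and marrow stromal cells too. Because vesicles carry miRNAs between cells, its level in each vesicle fraction is a common question.

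The 2 arms are shown because the results turn on the gap between them, with miR-21c beside them because it has the same seed as the 5p arm. The seed, bases 2 to 8 from the 5′ end and the part that pairs with targets, is in capitals. Sequences are from RefSeq on GRCm38.p6, where 2 of the 2 arms were matched.
miR-21a-5p: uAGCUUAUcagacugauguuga
miR-21a-3p: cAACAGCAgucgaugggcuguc
miR-21c: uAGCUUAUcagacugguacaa
Counting from 1 at the 5′ end of miR-21a-5p, miR-21c has the substitutions A16G, G18A, U19C, U20A and G21A and is 1 base shorter, so their first 15 bases are the same. Rows named miR-21b and miR-21c were at 0 in all 6 libraries, as were those of miR-590-5p and miR-590-3p. No other mature miRNA of that RefSeq table shared either seed, but no entry in it was matched for miR-21b or miR-590. The arms have different seeds, AGCUUAU and AACAGCA. Among the miRNAs with a sequence there, the count table held counts for 1 with each.

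The hairpin lies on chromosome 11 at 86584067 to 86584158, minus strand (GRCm38), with the 5p arm at 86584120 to 86584141 and the 3p arm at 86584082 to 86584103. In the GENCODE M21 annotation it sits inside an exon of the protein-coding gene Vmp1, on the same strand, in the untranslated part of its transcript (86583865 to 86585310). Vmp1 encodes a membrane protein of the endoplasmic reticulum needed for autophagy.

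Libraries held between 47441 and 114331 counts, the smallest being lEVs replicate 1. That library stood apart from the other lEVs libraries: the common biological coefficient of variation was 0.177 with it and 0.0832 without it. The comparison of the fractions is therefore given with and without it. Mesenchymal miRNAs taken as markers were all above 0 and summed to between 11.3% and 14.0% of a library, and cartilage miRNAs to between 1.12% and 2.05%. Skeletal muscle miRNAs made up between 1.67% and 2.58%, with miR-499-5p at 0 throughout, and endothelial miRNAs between 6.52% and 8.60%. Myeloid miRNAs summed to between 4.49% and 6.20%, lymphoid to between 0.453% and 0.710% and erythroid to between 0.438% and 0.746%.

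miR-21a-5p was an abundant miRNA of both fractions. It had 284, 1341 and 1138 counts in lEVs replicates 1, 2 and 3, which were 0.599%, 1.45% and 1.31% of the library totals. In sEVs replicates 1, 2 and 3 it had 772, 1283 and 1540 counts, or 1.02%, 1.29% and 1.35%. The 3 sEVs shares lay inside the range of the lEVs shares, since lEVs held both the lowest and the highest library. About 1 count in 69.0 was miR-21a-5p in lEVs replicate 2, the richest library, against 1 in 167 in lEVs replicate 1. The 95% Wilson intervals, which cover counting error only, ran from 0.533% to 0.672% in lEVs replicate 1 and from 1.37% to 1.53% in lEVs replicate 2. The gap between these libraries of the same fraction was thus wider than counting error. The interval of sEVs replicate 1, from 0.953% to 1.10%, was also below those of sEVs replicates 2 and 3, which began at 1.22% and 1.28%. The library numbered 1 was the lowest of its fraction in both fractions.

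**Figure D1:**
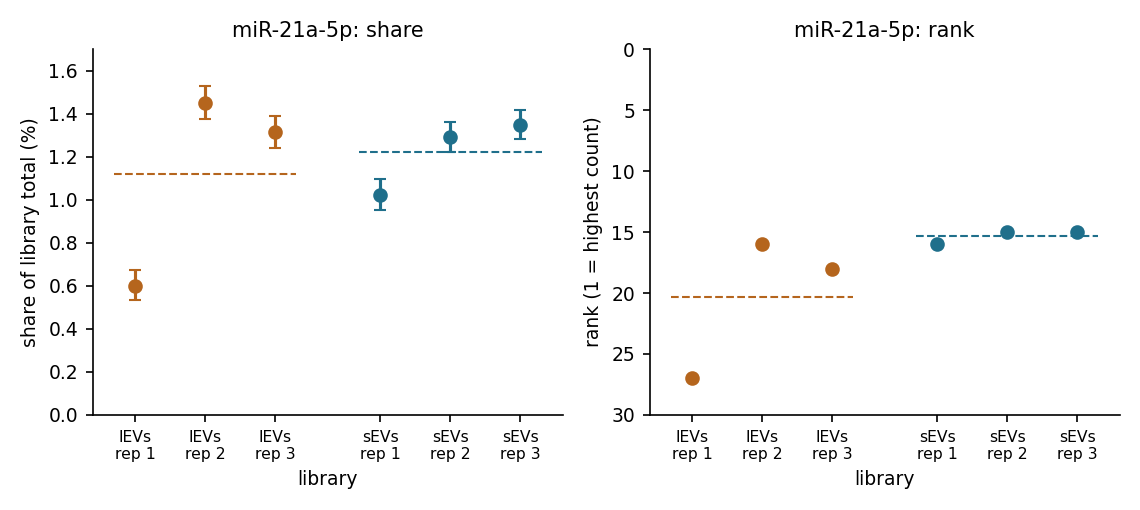
Share of the library total in percent (left, bars are 95% Wilson intervals) and rank by count, where 1 is the highest (right), of miR-21a-5p in each of the 6 libraries, with dashed lines at the means of the fractions. lEVs replicate 1, at 0.599% and rank 27, sits below the other 5 libraries, which lie between 1.02% and 1.45% and between ranks 15 and 18.

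By rank, miR-21a-5p was 15th or 16th in every sEVs library, at 16, 15 and 15 of the 202, 224 and 239 miRNAs above 0 in replicates 1, 2 and 3. In lEVs replicates 1, 2 and 3 it was at rank 27 of 194, 16 of 245 and 18 of 235. The mean rank was 20.3 ± 5.86 in lEVs against 15.3 ± 0.577 in sEVs (SD, n = 3 each; two-sided exact permutation p = 0.2, where 0.1 is the lowest 3 against 3 libraries can reach). Without lEVs replicate 1 the lEVs ranks averaged 17.0. The rank moved less than the share did in sEVs replicate 1, where miR-21a-5p was 16th with 1.02% of the counts. The miRNAs ahead of it took 79.4%, 77.4% and 76.9% of sEVs replicates 1, 2 and 3, and 88.7%, 73.6% and 76.6% of lEVs replicates 1, 2 and 3.

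In the order of mean share over all 6 libraries miR-21a-5p came 17th, at 1.17% ± 0.314 (SD, n = 6). Just above it were miR-148a-3p at 1.32% ± 0.494, miR-1a-3p, a miRNA of skeletal and heart muscle, at 1.31% ± 0.327, and the cartilage miRNA miR-140-3p at 1.29% ± 0.315. Just below were miR-142a-3p, made by blood cells, at 1.09% ± 0.192, miR-26b-5p at 1.00% ± 0.205 and miR-191-5p at 1.00% ± 0.535. None of these 6 means was separated from that of miR-21a-5p by more than the SD of the shares over libraries. Within libraries the order was firmer for one of them. miR-1a-3p was above miR-21a-5p in 6 of 6 libraries, by a mean log2 ratio of 0.17 with an SD of 0.0951. miR-26b-5p was below it in 5 of 6 libraries, the exception being lEVs replicate 1. miR-148a-3p, miR-140-3p and miR-142a-3p were each below it in 4 libraries and above it in lEVs replicate 1 and 1 more, and miR-191-5p was below it in the 3 sEVs libraries and above it in the 3 lEVs libraries.

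**Figure D2:**
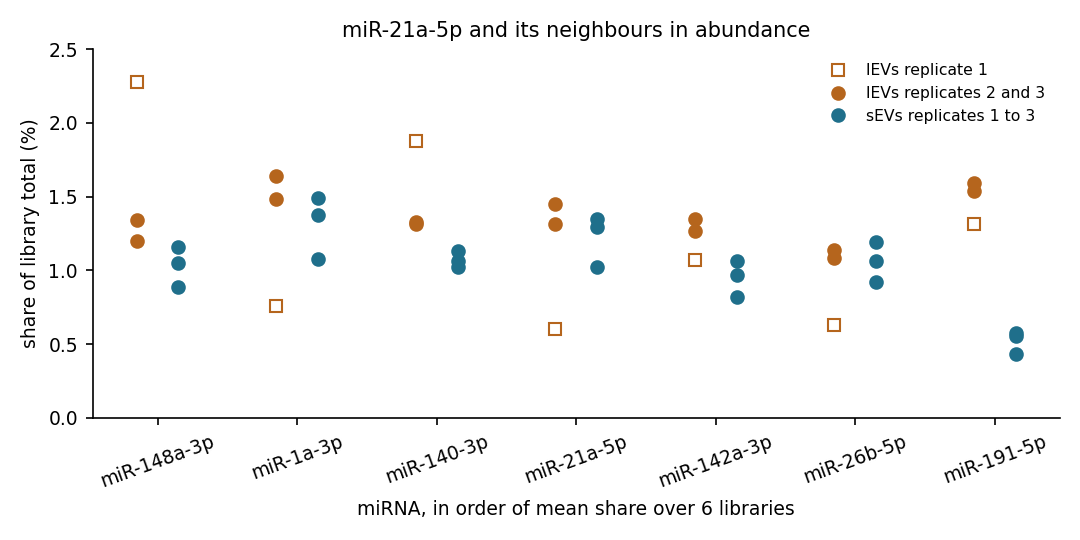
Share of the library total in percent for miR-21a-5p and the 3 miRNAs on either side of it in mean share, with 1 point per library (open squares mark lEVs replicate 1). In lEVs replicate 1, miR-21a-5p, miR-1a-3p and miR-26b-5p are at 0.599%, 0.759% and 0.628%, below their other libraries, while miR-148a-3p and miR-140-3p are at 2.28% and 1.88%, above theirs.

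The design's one contrast asks whether a miRNA differs between small and large vesicles, and for miR-21a-5p no difference was detected. In CPM with TMM factors (counts scaled so that libraries match in size and in most of their miRNAs) it stood at 10654, 13564 and 13826 in sEVs replicates 1, 2 and 3. The lEVs values were 7017, 12312 and 11754 CPM in replicates 1, 2 and 3. The lowest sEVs library was below the 2 higher lEVs libraries, so the fractions overlapped. The mean was 12681 ± 1761 CPM over the sEVs libraries against 10361 ± 2909 CPM over the lEVs libraries (SD, n = 3 each). The log2 fold change of sEVs relative to lEVs was 0.29 (SE 0.22; edgeR quasi-likelihood test with Benjamini-Hochberg adjustment over 145 miRNAs, adjusted p = 0.367). Its 95% interval ran from -0.24 to 0.81, that is from 1.18-fold higher in lEVs to 1.75-fold higher in sEVs. In this test 25 of the 145 miRNAs were called at an adjusted p under 0.05, or 17.2% (8.28% higher in sEVs and 8.97% higher in lEVs). Of the 2 arms 1 was tested and neither was called, and miR-21a-5p was at place 95 of 145 by p-value. Fully separated values were common, since 44.1% of the tested miRNAs had no overlap between the 3 values of each fraction, and miR-21a-5p was not among them. In bulk libraries like these, fewer vesicles of one origin and fewer copies per vesicle cannot be told apart.

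As a share of library totals the fractions were closer still, with 1.22% ± 0.174 for sEVs and 1.12% ± 0.457 for lEVs (SD, n = 3 each; two-sided exact permutation p = 0.9). The higher lEVs SD came from replicate 1. By coefficient of variation in CPM with TMM factors, miR-21a-5p varied by 28.1% in lEVs and 13.9% in sEVs. The medians of the 60 miRNAs with a mean of at least 1000 CPM were 15.5% in lEVs and 9.60% in sEVs. Among those 60 it had the 15th highest variation in lEVs and the 9th highest in sEVs.

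The effect of lEVs replicate 1 was larger than the difference between the fractions. At the mean share of lEVs replicates 2 and 3, 1.38%, a library of its 47441 counts would hold 655 counts of miR-21a-5p, and it held 284, a share 2.31-fold lower. The same step in sEVs, replicate 1 against the mean of replicates 2 and 3, was 1.29-fold lower. On the log2 scale the gap to the mean of those libraries was -0.78 in CPM with TMM factors, and with library totals by -1.21. The scaling matters because its TMM factor was 0.853 against 1.18 and 1.12 in lEVs replicates 2 and 3, while the median over all tested miRNAs was 0.09 with TMM and -0.34 with library totals. Relative to those medians miR-21a-5p was low in this library under both scalings. Of the 145 tested miRNAs, 16 lay lower and 36 deviated more in either direction under TMM. Among the 60 with at least 1000 CPM, 2 lay lower, the joined row miR-103-3p/107-3p at -1.31 and the muscle row miR-133a-3p/133b-3p at -0.95.

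**Figure D3:**
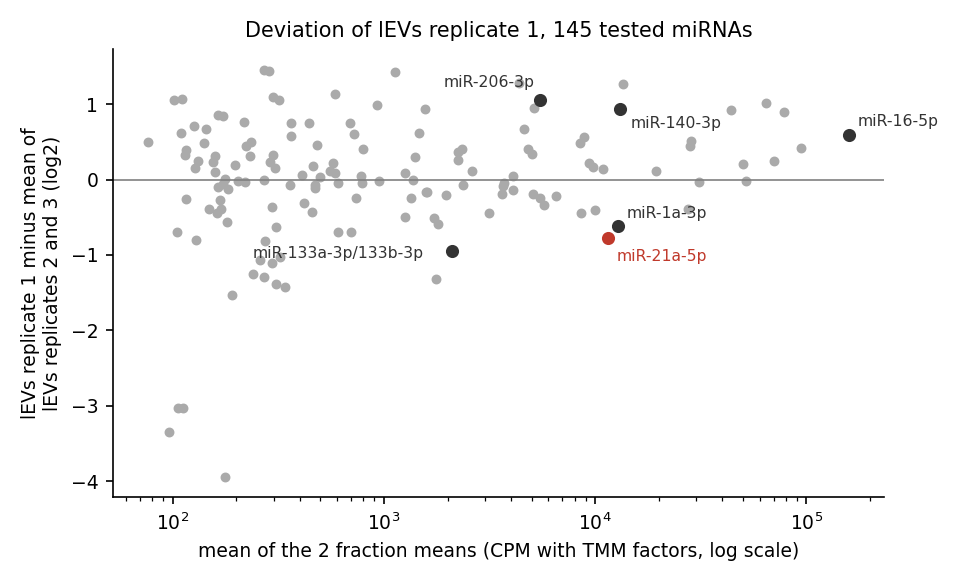
Log2 difference of lEVs replicate 1 from the mean of lEVs replicates 2 and 3 (vertical) against mean abundance in CPM with TMM factors on a log scale (horizontal), 1 point per tested miRNA, computed with 10 CPM added. miR-21a-5p, in red at -0.78, lies beside miR-1a-3p at -0.61, while miR-140-3p at 0.94, miR-206-3p at 1.06 and miR-16-5p at 0.59 lie above 0.

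Without lEVs replicate 1 the log2 fold change of miR-21a-5p between sEVs and lEVs fell from 0.29 to 0.07 (SE 0.12; edgeR adjusted p = 0.711), with a 95% interval from -0.18 to 0.32 and a mean of 12463 CPM in lEVs against 13047 CPM in sEVs. This narrower interval spans 1.13-fold higher in lEVs to 1.25-fold higher in sEVs. The test then called 52 of 151 miRNAs, or 34.4%, and miR-21a-5p was at place 121 by p-value. Among the fits, the sign for miR-21a-5p turned only where lEVs replicate 1 was left out and library totals replaced TMM. With library totals on all 6 libraries the log2 fold change was 0.12 (SE 0.29, edgeR adjusted p = 0.776). With library totals and without lEVs replicate 1 the log2 fold change was -0.18 (SE 0.12; edgeR adjusted p = 0.274), and the mean shares were 1.22% in sEVs and 1.38% in lEVs. Without both libraries numbered 1 it was 0.22 with TMM (SE 0.11, edgeR adjusted p = 0.0904, unadjusted p = 0.0409). That setting and the one before it were chosen after the data were seen, and fewer libraries lay behind these p-values. No direction for miR-21a-5p between the fractions was thus shared by these settings.

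**Figure D4:**
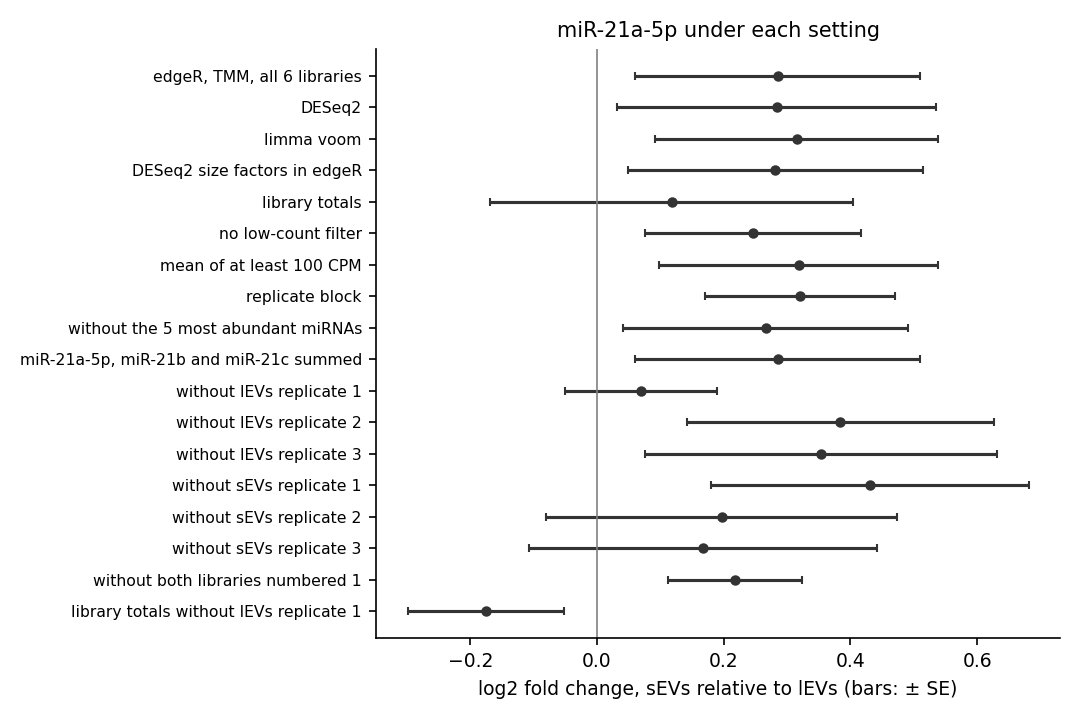
Log2 fold change of miR-21a-5p in sEVs relative to lEVs, with bars of 1 SE, for the fit on all 6 libraries and for each alternative. Values run from -0.18 (library totals without lEVs replicate 1) to 0.43 (without sEVs replicate 1), and an adjusted p under 0.05 was reached in none of the fits shown.

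Ratios to other miRNAs of the same library use neither library totals nor TMM factors. miR-21a-5p was compared with the 5 most abundant miRNAs, miR-16-5p, miR-199a-3p/199b-3p, let-7c-5p, miR-126a-3p and let-7b-5p. Per 100 counts of miR-16-5p, which is abundant in blood cells, there were 3.24, 9.11 and 7.76 counts of miR-21a-5p in lEVs replicates 1, 2 and 3. In sEVs there were 6.74, 8.90 and 9.57. Per 100 counts of let-7b-5p, a widely expressed let-7 miRNA, lEVs replicates 1, 2 and 3 had 7.68, 28.2 and 25.3 counts of it and those of sEVs 14.3, 19.8 and 22.5. lEVs replicate 1 had the lowest ratio of all 6 libraries against each of the 5 partners. Mean log2 ratios were higher in sEVs by 0.44 for miR-16-5p, 0.21 for miR-199a-3p/199b-3p, 0.04 for let-7c-5p, 0.02 for miR-126a-3p and 0.08 for let-7b-5p. The ratios of the fractions overlapped for all 5 partners (exact two-sided permutation p = 0.6 for miR-16-5p and 1 for the others, Benjamini-Hochberg adjusted p = 1 for all 5, where 3 against 3 libraries cannot go below 0.1 unadjusted). Without lEVs replicate 1 these differences became -0.02, -0.19, -0.52, -0.32 and -0.52, all on the lEVs side (exact two-sided permutation p = 0.2 for 4 of them and 1 for miR-16-5p, where 0.2 is the smallest that 3 against 2 libraries give).

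Across the 6 libraries, the miRNA whose pattern was most like that of miR-21a-5p in CPM with TMM factors was miR-1a-3p. Likeness was Pearson's r of log2 CPM with TMM factors (10 CPM added) among the 59 other miRNAs with a mean of at least 1000 CPM, given as a description of 6 points that share their libraries and scaling. The 5 highest were miR-1a-3p (r = 0.98), miR-195a-5p of the miR-15/16 seed family (0.97), miR-26b-5p (0.95), the endothelial miR-126a-5p (0.92) and miR-30e-5p (0.84). The lowest were the cartilage miRNA miR-140-3p (-0.96), the muscle miRNA miR-206-3p (-0.96) and miR-16-5p (-0.92). The median over the 59 was -0.01. With library totals r was 0.990 for miR-26b-5p and 0.987 for both miR-195a-5p and miR-1a-3p, so the first place depended on the scaling. It was then 0.97 for miR-126a-5p and 0.90 for miR-30e-5p. For the least alike it was weaker, at -0.76 for miR-140-3p, -0.74 for miR-206-3p and -0.68 for miR-16-5p. For miR-1a-3p the shares were 0.759%, 1.64% and 1.49% in lEVs replicates 1, 2 and 3 and 1.08%, 1.38% and 1.49% in those of sEVs. Like miR-21a-5p, it was lowest in the library numbered 1 of each fraction. miR-140-3p had 1.88%, 1.33% and 1.31% in lEVs and 1.13%, 1.02% and 1.07% in sEVs, with its highest value where miR-21a-5p was lowest. Without lEVs replicate 1, r over the other 5 libraries was 0.96 for miR-1a-3p and 0.91 for miR-195a-5p, which kept the first and the second place. It was 0.67 for miR-126a-5p and 0.51 for miR-30e-5p, at place 6 and 14 of 59, so their likeness rested largely on that library. For miR-26b-5p it was 0.86. Of the least alike, miR-140-3p stayed at -0.93, while miR-206-3p moved to -0.70 and miR-16-5p to -0.41, at place 49 of 59. None of these 5 alike miRNAs was called between the fractions, with log2 fold changes from 0.18 to 0.56 (edgeR adjusted p from 0.0503 to 0.513). The same fit called 17.2% of all 145 tested miRNAs, and the 5 were picked for following miR-21a-5p, itself not called. Their count of calls is therefore not informative. Values of miR-126a-5p and miR-30e-5p did not overlap between the fractions, as for 44.1% of tested miRNAs. Those of miR-1a-3p, miR-195a-5p and miR-26b-5p did.

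**Figure D5:**
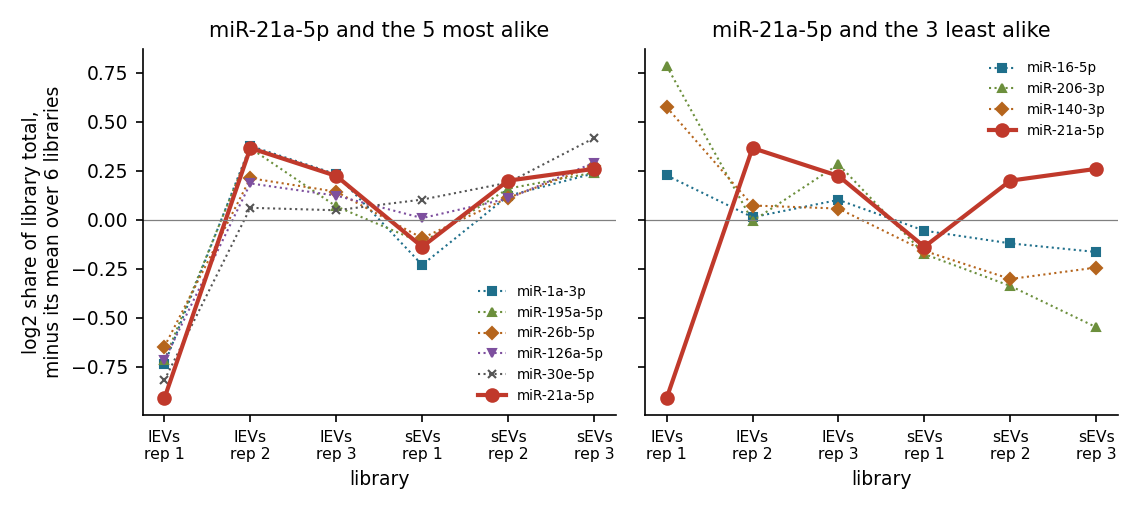
Log2 share of the library total, minus its mean over the 6 libraries, for miR-21a-5p (red) and the miRNAs most and least alike. The 5 most alike (left) and the 3 least alike (right) were picked in CPM with TMM factors. Lines only join the points of 1 miRNA. The 5 alike miRNAs are lowest in lEVs replicate 1, as is miR-21a-5p, and the 3 others are highest there.

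The marker lists moved unevenly in lEVs replicate 1. Summed shares there against lEVs replicates 2 and 3 were 1.78% against 2.58% and 2.41% for skeletal muscle and 2.05% against 1.44% and 1.45% for cartilage. They were 4.49% against 6.20% and 6.15% for myeloid, 6.52% against 7.80% and 7.73% for endothelial and 11.3% against 12.8% and 12.4% for mesenchymal miRNAs. The lymphoid sum was 0.453% against 0.618% and 0.571%, and the erythroid sum 0.746% against 0.544% and 0.588%. So 5 of the 7 sums were lowest in lEVs replicate 1 among the lEVs libraries and 2 were highest there, where by library totals 71.7% of the 145 tested miRNAs were below lEVs replicates 2 and 3. In CPM with TMM factors the median log2 deviation was -0.09 for myeloid, -0.07 for lymphoid and -0.10 for endothelial miRNAs, -0.16 for mesenchymal, -0.61 for skeletal muscle, 0.07 for erythroid and 0.66 for cartilage miRNAs. Muscle miRNAs did not move as one, since miR-1a-3p and miR-133a-3p/133b-3p were low and miR-206-3p high in that library. Nor did the 2 tested erythroid rows, with miR-451a at -0.81 and miR-486a-5p/486b-5p at 0.95. The endothelial arms were split too, with miR-126a-3p at 0.24 and miR-126a-5p at -0.44. The part of these cell types, or of the lower depth, in the low value of miR-21a-5p was not tested.

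miR-21a-3p, the passenger strand, was near the limit of the table. It had 0, 3 and 6 counts in lEVs replicates 1, 2 and 3 and 6, 0 and 0 in sEVs replicates 1, 2 and 3. Above 0 it ranked 213th of 245 and 167th of 235 in lEVs replicates 2 and 3, and 145th of 202 in sEVs replicate 1. Its shares were 0.00324%, 0.00693% and 0.00795% in these libraries. The table held no values of 1, so a 0 can be either 0 or 1 count, and zeros were given no upper limit. With 15 counts in all it did not pass the filter on low counts, and the fractions, at means of 0.00265% in sEVs and 0.00339% in lEVs, could not be told apart at this depth (exact two-sided permutation p = 1, n = 3 each). With no filter, edgeR gave it a log2 fold change of -0.39 with an SE of 1.50 (adjusted p = 0.868 over 327 miRNAs).

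The ratio of the arms within a library does not depend on its total, though adapter ligation can favour one sequence over another. Over all 6 libraries there were 6358 counts of miR-21a-5p and 15 of miR-21a-3p, or 424 to 1. The 3p arm made up 0.325% of both arms in the summed lEVs libraries (9 counts against 2763; 95% exact interval 0.149% to 0.615%). In the summed sEVs libraries it made up 0.167% (6 against 3595; 0.0612% to 0.362%). These intervals overlap and cover counting error only. Reading each 0 as 1 count would give 0.361% in lEVs and 0.222% in sEVs. Among the libraries with counts, there were 447 and 190 counts of the 5p arm per count of the 3p arm in lEVs replicates 2 and 3, and 129 in sEVs replicate 1. The library numbered 1 of sEVs, lowest of its fraction in the 5p arm, was the only one of that fraction with the 3p arm above 0.

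An imbalance of this size was common in these vesicles. Of 88 hairpins with both arms as rows of their own and at least 60 counts of the larger arm, 58 had the 5p arm larger. The larger arm took a median of 99.8% of both arms, and that of miR-21a took 99.8%, at place 46 of 88. The first hairpin with any counts of its smaller arm, let-7b, was at place 37. Those tied ahead of let-7b had none, some with few counts (miR-190a, 64) and some with many (miR-26b, 5405). The place of miR-21a thus depends on the depth of other hairpins as well. Among the 26 hairpins with at least 1000 counts, 17 had more than 99% in the larger arm and 11 had a higher share of the smaller arm than miR-21a. A test of the arm ratio between the fractions over all hairpins needed a mean of 10 counts for each arm, which 14 hairpins met and miR-21a did not.

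miRNAs linked to a role of miR-21a-5p were described by 2 lists. miR-21a-5p is itself a member of both, so their counts, medians and sums include it. Of 11 tested miRNAs linked to osteoclast formation and function, miR-125a-5p rose in sEVs, none fell and 10 did not pass. That edgeR fit, on all 6 libraries, called 17.2% of the 145 tested miRNAs. The median log2 fold change of the 11 was -0.04, the same as over all tested miRNAs (-0.04). DESeq2 called 3 of the 11, limma voom 2, and edgeR without lEVs replicate 1 called 3 of 11. Over all miRNAs tested, these latter fits called 25.5%, 20% and 34.4%. miR-21a-5p was the fifth most abundant member. miR-223-3p, of granulocytes and the osteoclast lineage, held a mean of 3.13%, miR-125a-5p 2.79%, miR-26a-5p 1.95%, miR-148a-3p 1.32% and miR-146a-5p 0.411%. In lEVs replicate 1, 7 of the 11 were below the mean of the other lEVs libraries under TMM, as were 46.2% of all tested miRNAs, with miR-223-3p at -0.03 and miR-148a-3p at 1.27 against -0.78 for miR-21a-5p. The list summed to between 11.6% and 12.1% of sEVs libraries and between 9.16% and 10.7% of lEVs libraries, and miR-124-3p and miR-7b-5p were at 0 throughout.

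Of 11 tested miRNAs linked to injury and fibrosis, miR-21a-5p was the most abundant. Of the 11, miR-22-3p rose in sEVs, miR-29a-3p fell and 9 did not pass, where edgeR on all 6 libraries called 17.2% of 145. The 11 had a median log2 fold change of -0.17. DESeq2 called 4 of them, limma voom 2, and edgeR without lEVs replicate 1 called 4 of 11. Over all miRNAs these latter fits called the same 25.5%, 20% and 34.4%. miR-29a-3p, which represses collagen genes, was next in abundance at 0.854%, followed by miR-199a-5p at 0.474%, miR-146a-5p at 0.411%, miR-29c-3p at 0.0955% and miR-22-3p at 0.0698%. In lEVs replicate 1, 8 of the 11 were below that mean, against 46.2% of all tested miRNAs, with deviations near 0 for miR-29c-3p (-0.02) and miR-146a-5p (-0.14) and a median of -0.69. This median was further from 0 than that over all tested miRNAs, 0.09, and the deviations ranged among the abundant members from -0.78 for miR-21a-5p to 0.49 for miR-29a-3p. Below miR-21a-5p lay miR-34a-5p at -1.29, miR-192-5p at -1.25, miR-214-3p at -1.06 and miR-155-5p at -0.81. Their mean shares were 0.0282%, 0.0245%, 0.0266% and 0.0134%, so few counts lay behind these deviations and the median leans on them. The list summed to between 2.66% and 3.18% of sEVs libraries and between 2.77% and 3.92% of lEVs libraries. miR-132-3p, miR-212-3p, miR-200b-3p and miR-433-3p were at 0 throughout.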

How the data were processed

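Small RNA was taken from 3 lEVs and 3 sEVs libraries made with the QIAseq miRNA kit and read on a MiSeq as single reads of 75 bases, per the labels' protocols. The authors deposited raw counts per mature miRNA. The submitters' processing notes name GRCm38, R 4.2.2 and DESeq2 1.38.2 without their roles. For the aligner, the counting rule, strand and the kit's molecular identifiers, what was done is not given in the sources used here. Adapter ligation favours some sequences, so shares of different miRNAs are not exact ratios of molecules. Of the rows, 35 join several names.

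The test between fractions was edgeR 4.0.16 under R 4.3.3 (quasi-likelihood, TMM). It used filterByExpr with minimum count 10 and minimum total 15, and Benjamini-Hochberg over 145 miRNAs at a threshold of 0.05. It was also run on simulated counts, which held no outlying library, so that run does not cover the effect of lEVs replicate 1. Standard errors are the log2 fold change over the square root of F. Single values were tested with exact permutation in scipy 1.17.1. Alternatives used DESeq2 1.42.0 and limma 3.58.1. Ranks count ties at the better place. Named miRNAs were both arms, rows sharing a name or seed with them, 3 neighbours in mean share on each side, the 5 most and 3 least alike above 1000 CPM, the 5 most abundant, and up to 6 of the most abundant and all called members of each list of shared roles. miR-103-3p/107-3p, miR-133a-3p/133b-3p and miR-206-3p as lowest or uneven in lEVs replicate 1 were named after their values were seen. Members and lists were chosen with earlier results of these data known. A list that was also planned is not reported here.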

Additional observations from a re-analysis of the deposited data

How the results depend on the processing

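Under the 15 listed alternatives of the fit, miR-21a-5p kept a log2 fold change above 0 and passed the threshold in none (adding the rows miR-21b and miR-21c, both at 0, could not move it); leaving out single libraries gave 0.07 to 0.43. In settings chosen after seeing the data, it turned to -0.18 with library totals and without lEVs replicate 1. It stayed above 0, at 0.22, without both libraries numbered 1, a setting chosen in the same way. The difference of its share (sEVs minus lEVs, percentage points) was 0.0999, and -0.161 to 0.264 when single libraries were left out, below 0 only without lEVs replicate 1. Its rank difference was -5, and -7.17 to -1.67. For miR-21a-3p the share difference, -0.000740, ranged from -0.00339 to 0.00103. The log2 ratio differences, recomputed after seeing the data, ranged from -0.017 to 0.73 for miR-16-5p, -0.19 to 0.44 for miR-199a-3p/199b-3p, -0.52 to 0.34 for let-7c-5p, -0.32 to 0.23 for miR-126a-3p and -0.52 to 0.41 for let-7b-5p.

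The number of called miRNAs, 25, became 53 with no filter on low counts, 16 to 52 when single libraries were left out (16 without lEVs replicate 3, 52 without lEVs replicate 1), 60 without both libraries numbered 1 and 64 with library totals and without lEVs replicate 1; the cause was not tested. Library totals moved the split from 12 higher in sEVs and 13 in lEVs to 11 and 24, and the median log2 fold change from -0.04 to -0.18. With a replicate block the count was 26, and miR-21a-5p had 0.32 (edgeR adjusted p = 0.161). Deviations of same-numbered libraries correlated at -0.07, 0.07 and 0.37, and not every library correlated best with its own number. With so few libraries per fraction, these values cannot decide whether the numbers pair the libraries. miR-21a-3p had too few counts for the fit, so its alternatives, except that with no filter, and all fits of the arm ratio of miR-21a were not run. Few counts limit the 3p arm, and lEVs replicate 1 limits the 5p arm.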
